A study of Homo sapiens with 39 samples.

Results

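The 10 chemicals of the study were set beside their vehicle controls for 10 genes of the unfolded protein response and the integrated stress response, which are HSPA5, HERPUD1, DNAJB9, SDF2L1, XBP1, ATF4, DDIT3, TRIB3, ASNS and CHAC1. The genes were taken by symbol from the 20802 gene targets of the deposited table, where each has 1 target, and all 10 were found. HepaRG™, an established human line of hepatic progenitor cells, was used here after differentiation. Cultures were dosed on each of 3 days and taken for RNA 7 h after the last dose, at 55 h of exposure, to see which chemicals raise a DNA damage response. In AmpliSeq, primers specific to each gene amplify 1 short target, and the reads on it are counted. The 39 libraries held 30 treated conditions and 9 vehicle controls, and each library was made from RNA of 3 cultures that had been pooled, so a condition has 1 library and no replicate check.

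The DNA damage-inducing (DDI) chemicals were aflatoxin B1 (AFB1) at 0.25, 1 and 2.5 µM, 2-nitrofluorene (2NF) at 10, 50 and 250 µM, cisplatin (CISP) at 2, 5 and 10 µM, etoposide (ETP) at 0.5, 2.5 and 10 µM and methyl methanesulfonate (MMS) at 50, 100 and 200 µM. The non-DDI chemicals were 2-deoxy-D-glucose (2DG) at 1.25, 5 and 10 mM, colchicine (COL) at 0.05, 0.1 and 0.3 µM, sodium ascorbate (ASC) at 1, 2 and 10 mM, ampicillin trihydrate (AMP) at 1, 3 and 10 mM and sodium chloride (NaCl) at 1, 2.5 and 10 mM. DMSO was the vehicle of AFB1, 2NF, CISP, ETP and COL, water that of MMS, and media that of 2DG, ASC, AMP and NaCl. AFB1 and COL shared 1 control, and the 3 concentrations of a chemical shared theirs, so their ratios are not independent. The only water control was that of MMS.

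The endoplasmic reticulum (ER) folds secreted and membrane proteins, and its load is high in hepatocytes, which export most plasma proteins. When unfolded protein builds up there, the sensors ATF6, IRE1 and PERK raise chaperones and degradation factors, IRE1 by splicing the mRNA of XBP1 and ATF6 by entering the nucleus. PERK and the related kinases that sense missing amino acids, haem or viral RNA phosphorylate eIF2 alpha, which slows translation while the mRNA of ATF4 is translated more, and this shared route is the integrated stress response. 2DG is a glucose analogue that blocks glycolysis and disturbs the addition of sugar chains to proteins in the ER, and it is a textbook trigger of the unfolded protein response.

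The 10 genes were read as 2 arms of 5. The chaperone arm held HSPA5 (BiP, the main ER chaperone), HERPUD1 (a membrane component of ER-associated degradation), DNAJB9 (ERdj4, a co-chaperone of BiP), SDF2L1 (an ER-resident partner of BiP) and XBP1 (the transcription factor that IRE1 splices). The ATF4 arm held ATF4 itself, DDIT3 (CHOP, a transcription factor of the death branch), TRIB3 (a pseudokinase that feeds back on ATF4 and AKT), ASNS (asparagine synthetase) and CHAC1 (an enzyme that degrades glutathione).

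Elements that the factors of this response are known to bind were looked for in the promoters, and they are shown because they did not split the 2 arms cleanly. The stretches of the 6 genes with a match are printed from the 250 bases before each start in RefSeq (GRCh38.p14), 5′ to 3′ on the strand of the gene, with the matched bases in capitals. In HSPA5 (chr9:125241371-125241429, minus strand) and XBP1 (chr22:28800583-28800641, minus strand) the capitals are the ER stress response element, which is CCAAT and CCACG with 9 bases between them. HERPUD1 (chr16:56931946-56932055, plus strand) and SDF2L1 (chr22:21642094-21642144, plus strand) held the second form of that element, ATTGG and CCACG with 1 base between them, read on the other strand in SDF2L1. ASNS (chr7:97872449-97872496, minus strand) and CHAC1 (chr15:40953242-40953289, plus strand) held TGATGNAA, the core of the element bound by C/EBP and ATF factors, on the other strand in CHAC1, and HERPUD1 held it as well, as its earlier stretch of capitals, also on the other strand.
HSPA5: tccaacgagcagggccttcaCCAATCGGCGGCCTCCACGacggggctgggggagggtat
XBP1: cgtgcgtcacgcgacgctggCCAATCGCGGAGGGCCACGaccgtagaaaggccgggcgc
HERPUD1: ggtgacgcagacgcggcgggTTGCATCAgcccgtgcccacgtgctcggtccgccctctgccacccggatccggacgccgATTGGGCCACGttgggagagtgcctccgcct
SDF2L1: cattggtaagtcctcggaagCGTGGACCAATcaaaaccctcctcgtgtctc
ASNS: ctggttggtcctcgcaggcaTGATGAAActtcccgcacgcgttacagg
CHAC1: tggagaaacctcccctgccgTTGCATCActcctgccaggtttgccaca

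Both strands were searched, and no matches overlapped. Of all 35116 promoter windows of that length, 0.074% held the ER stress response element, 0.0513% held its second form and 3.14% held TGATGNAA. The core of the unfolded protein response element, TGACGTG, was in 1.68% of the windows and in none of those of the 10 genes. DNAJB9, ATF4, DDIT3 and TRIB3 had none of the 4 motifs in this window. A match is a description of letters and not a measured binding site.

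Total counts per library ranged from 8504699 to 16425527 (median 11202013). Levels are given as RPM, in which the reads on a target are scaled by the total reads of the library. The log2 ratio of a gene was taken as log2(RPM + 1) of the treated library less the same value of its vehicle control, which makes changes at low RPM look smaller than they are. All 10 hepatocyte markers examined had at least 10 counts in every library, and their summed level was between 24174 and 48562 RPM in the 9 controls. The libraries of MMS 100 and 200 µM had the lowest median correlations with the other libraries (Pearson's r across genes, 0.923 and 0.932), and in 2DG 1.25 mM and CISP 2 µM more genes were over 2-fold lower (3.3% and 6.56%) than at the highest concentration of the same chemical (0.261% and 0.399%).

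Over the 30 conditions, 17 of the 300 gene and condition pairs were more than 2-fold above the matched control and 12 more than 2-fold below it. Of the 17, 13 were among the 40 pairs of MMS 100 and 200 µM and 2NF 50 and 250 µM, 4 conditions that were grouped after their values were seen. The ATF4 arm held 16 of the 17 higher and 10 of the 12 lower pairs, and the chaperone arm held the other 3 among its 150 pairs. The lower pairs depended on the control that was used. With each ratio taken to the average of the controls that shared its vehicle, 13 of the 17 higher pairs and 1 of the 12 lower pairs were still past 2-fold, and against the mean of all 9 controls 14 and 0 were.

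**Figure D1:**
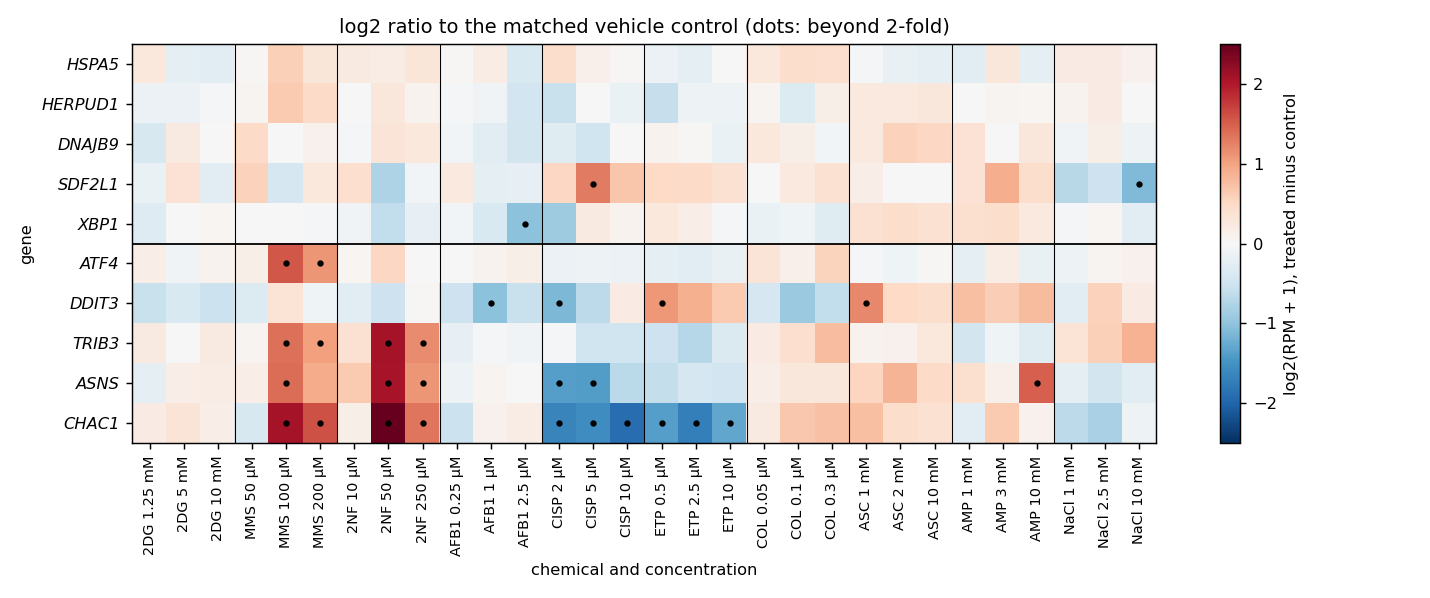
Colour gives the log2 ratio of each of the 10 genes (rows, the chaperone arm above the black line and the ATF4 arm below it) in each of 30 treated conditions (columns, 1 library each) against its matched vehicle control, and dots mark ratios beyond 2-fold. The red block of TRIB3, ASNS and CHAC1 lies in the mid and high concentrations of MMS and 2NF, the blue cells of CHAC1 lie in CISP and ETP, and 2DG has no dot.

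In 2DG, no gene of either arm passed 2-fold at any concentration. The 30 pairs of 2DG had a largest absolute log2 ratio of 0.56, and 15 of them were above 0. HSPA5 stood at 899.6 RPM in the media control of 2DG, 1077 RPM at 1.25 mM, 755.8 RPM at 5 mM and 752.2 RPM at 10 mM. The lowest concentration was therefore above and the other two were below all 9 vehicle controls, which lay between 844.4 and 1004 RPM. Expressed as log2 ratios these were 0.26, -0.25 and -0.26, while controls of the same vehicle differed by up to 0.15. At the same 3 concentrations the share of all genes with at least 10 counts that were more than 2-fold higher was 0.097%, 0.12% and 0.0373%, and the share more than 2-fold lower was 3.3%, 0.127% and 0.261%.

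The other 4 chaperone-arm genes had log2 ratios smaller in size than the largest difference between media controls, in each 2DG library. HERPUD1 was at 110.6 RPM in the control and at 99.6, 100.2 and 107.9 RPM from the low to the high concentration, all within the 85.8 to 122.7 RPM of the 9 controls. DNAJB9 was at 42.4 RPM in the control and at 31.9, 49.7 and 43.0 RPM, and the media controls alone ran from 31.4 to 58.2 RPM. SDF2L1 was at 6.82 RPM in the control and at 5.98, 9.07 and 5.42 RPM, and it was read at only 55 to 137 counts in the 9 controls. XBP1 was at 219.8 RPM in the control and at 176.0, 222.0 and 227.9 RPM, so that 1.25 mM was below all 9 controls (187.2 to 296.0 RPM) and the other two were inside their range. Whether the XBP1 target tells the spliced from the unspliced mRNA was not analysed here.

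**Figure D2:**
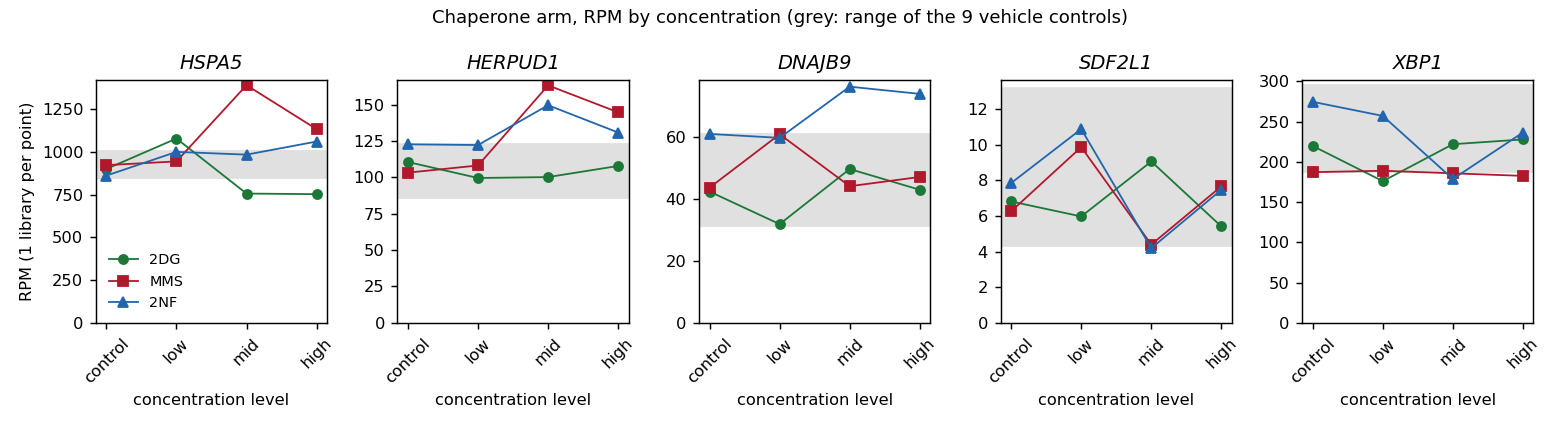
RPM (1 library per point) of the 5 chaperone-arm genes in the vehicle control and at the low, mid and high concentrations of 2DG, MMS and 2NF, with the range of the 9 vehicle controls in grey. HSPA5 in 2DG ends at 752.2 RPM, under the grey band, and in MMS it peaks at 1389 RPM at the mid concentration.

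No gene of the ATF4 arm had a log2 ratio over 0.33 in 2DG. ATF4 was at 193.8 RPM in the control and at 218.4, 181.9 and 205.3 RPM with rising 2DG. TRIB3 was at 28.6 RPM and then at 33.6, 28.5 and 33.6 RPM, where 1.25 and 10 mM were just above the highest control (33.2 RPM). ASNS went from 15.7 RPM to 13.2, 17.8 and 18.0 RPM. CHAC1 was at 2.18 RPM in the control and at 2.69, 2.99 and 2.59 RPM, all inside the range of the 9 controls (1.43 to 9.73 RPM). DDIT3 was read at only 2 to 27 counts in the controls, and its 1.84 RPM in the 2DG control against 0.926, 1.20 and 0.970 RPM rests on few reads, with a 95% counting interval of -2.15 to 0.07 for the log2 ratio at 1.25 mM. That interval is the exact binomial one for the 2 counts without the pseudocount and covers counting error only.

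With the 3 concentrations in place of replicates, edgeR called 0 of the 10 genes in 2DG (adjusted p = 1 for each), where 0 of the 14107 genes tested, 0%, were called. None of the 10 genes had an unadjusted p under 0.05 in 2DG, compared with 134 of all genes tested, and DESeq2 also called 0 of the 10. For HSPA5 the log2 difference was -0.07 with a 95% interval from -0.56 to 0.43, for HERPUD1 -0.11 (-0.58 to 0.35), for ATF4 0.05 (-0.53 to 0.64) and for TRIB3 0.15 (-0.70 to 1.01). Changes inside these intervals remain possible, and the intervals are not limits of detection. In the same edgeR fit, ATF4 in MMS differed by 0.95, outside its interval in 2DG, and was not called (adjusted p = 0.111). CHAC1, at 0.33 with an interval from -1.30 to 1.96, had the widest interval of the 10 genes.

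The wider pathway was read from 8 lists with 93 genes, of which 88 were tested. In 2DG, edgeR called 0 of the 88 in either direction, 0 had an unadjusted p under 0.05, and DESeq2 called 0. The 14 ER chaperones and folding enzymes had a median log2 difference of -0.10 with 2 above 0, and the 12 genes tested of amino acid supply under ATF4 had 0.12 with 9 above 0. By single libraries, the ER chaperone list had 2 genes past 2-fold in 2DG 1.25 mM, both lower, and none at 5 or 10 mM, beside the 3.3% of all genes that were lower in that library. These were CANX, a lectin chaperone of glycoproteins, at 480.5 RPM against 1175 RPM, and PDIA4, a disulfide isomerase, at 102.8 RPM against 213.2 RPM, named after their values were seen. For both genes the 2DG control was the highest of the 9. Both treated values were inside the range of the controls (446.6 to 1175 RPM for CANX and 100.5 to 213.2 RPM for PDIA4). In the other lists DERL2, of ER-associated degradation, was at 11.6 against 29.7 RPM and CEBPB, a partner of ATF4, at 19.7 against 67.5 RPM in the same library, and ATF3 was past 2-fold lower at 5 mM. ATF3, a stress-induced transcription factor, was at 67.2 RPM in the 2DG control and at 53.1, 27.5 and 39.1 RPM in the treated libraries. PPP1R15A (GADD34), the phosphatase subunit that reverses eIF2 alpha phosphorylation, was at 54.1 RPM and then at 58.2, 29.9 and 37.5 RPM. ATF3 alone varied between 10.2 and 76.2 RPM over the 9 controls.

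In MMS and 2NF, TRIB3, ASNS and CHAC1 stood above their controls at the mid and high concentrations. TRIB3 was at 29.4 RPM in the MMS control and at 31.0, 77.6 and 61.3 RPM at 50, 100 and 200 µM. In 2NF it was at 26.1 RPM in the control and at 34.4, 114.2 and 60.6 RPM at 10, 50 and 250 µM. The 4 mid and high libraries were all above the highest of the 9 controls, 33.2 RPM, and the mid libraries were above the high ones. Log2 ratios were 1.37 and 1.03 in MMS and 2.09 and 1.19 in 2NF. Above the highest control for TRIB3 were 12 of the 30 treated libraries. Besides these 4 they were 2NF 10 µM, COL 0.3 µM, ASC 2 and 10 mM, NaCl 2.5 and 10 mM and 2DG 1.25 and 10 mM. In NaCl the log2 ratios of TRIB3 were 0.34, 0.61 and 0.87 with rising concentration.

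ASNS, which makes asparagine, was at 16.1 RPM in the MMS control and at 18.2, 43.9 and 31.6 RPM with rising MMS. In 2NF it was at 17.0 RPM in the control and at 27.4, 73.9 and 37.9 RPM. All 4 mid and high libraries were above the highest control, which at 29.6 RPM was that of CISP. CHAC1 was at 3.09 RPM in the MMS control and at 2.11, 16.3 and 11.3 RPM, and at 3.25 RPM in the 2NF control and at 3.72, 22.9 and 9.78 RPM. The 4 libraries again lay above all controls, although 2NF 250 µM did so narrowly (9.78 against 9.73 RPM in the CISP control). Its log2 ratios of 2.08 and 1.58 in MMS and 2.50 and 1.34 in 2NF were the largest of the 10 genes in each of these libraries.

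ATF4 mRNA itself was higher mainly in MMS. It was at 185.9 RPM in the MMS control and at 206.3, 546.3 and 402.3 RPM with rising MMS, where the mid and high libraries exceeded all 9 controls (155.1 to 235.3 RPM). In 2NF it was at 204.1 RPM in the control and at 210.8, 293.9 and 206.8 RPM, so only the mid library was above the controls. DDIT3 rested on few reads. It was at 1.67 RPM in the MMS control and at 1.11, 2.38 and 1.47 RPM, and at 1.57 RPM in the 2NF control and at 1.15, 0.803 and 1.63 RPM, with counting intervals of the log2 ratios that spanned 0 in all 6 libraries. MMS 100 µM was above the highest control (1.86 RPM), and the other 5 libraries were within the range of the controls.

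**Figure D3:**
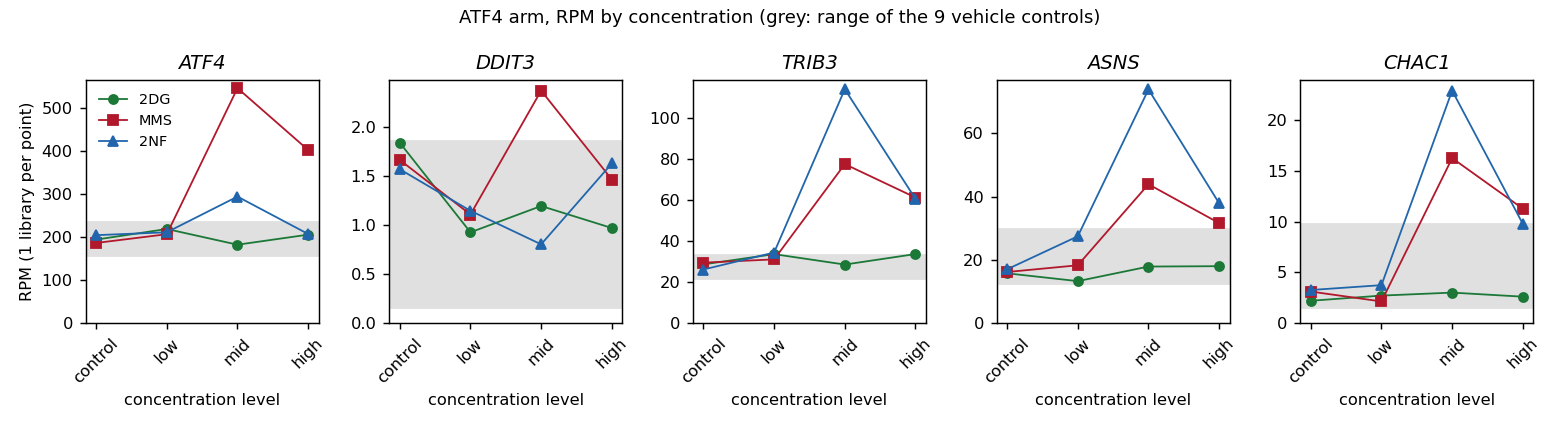
RPM (1 library per point) of the 5 ATF4-arm genes in the vehicle control and at the low, mid and high concentrations of 2DG, MMS and 2NF, with the range of the 9 vehicle controls in grey. TRIB3, ASNS and CHAC1 peak at the mid concentration of MMS and 2NF, at up to 114.2, 73.9 and 22.9 RPM, while 2DG stays in or at the edge of the grey band.

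Of the 10 genes, 4 in MMS 100 µM, 3 in MMS 200 µM, 3 in 2NF 50 µM and 3 in 2NF 250 µM were more than 2-fold higher, against 3.37%, 3.18%, 2.78% and 4.65% of all genes with at least 10 counts. None of the 10 was more than 2-fold lower in these libraries. Medians of the 5 ATF4-arm ratios were 1.39, 1.03, 2.06 and 1.11 in the same order, and medians of all genes 0.08, 0.09, 0.02 and 0.06. At the low concentrations the medians of the arm were 0.07 in MMS and 0.15 in 2NF, with 0 genes past 2-fold.

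The chaperone arm had smaller ratios. Its medians in the 4 libraries were 0.01, 0.25, 0.19 and 0.09, and none of its genes passed 2-fold there. HSPA5 was at 921.9 RPM in the MMS control and at 943.8, 1389 and 1132 RPM, of which the mid and the high library were above all 9 controls. In 2NF it was at 860.7 RPM in the control and at 999.5, 983.2 and 1060 RPM, of which only the high library passed the highest control. HERPUD1, whose promoter window held matches of both kinds, was at 103.3 RPM in the MMS control and at 108.2, 163.3 and 144.7 RPM, and at 122.7 RPM in the 2NF control and at 122.2, 149.6 and 130.8 RPM. All 4 mid and high libraries of HERPUD1 were above the 9 controls, with log2 ratios of 0.66, 0.48, 0.28 and 0.09. This was not confined to MMS and 2NF. Of all treated libraries, 6 were above and 4 were below the 9 controls for HERPUD1. The higher ones included NaCl 1 mM (123.4 RPM) and NaCl 2.5 mM (133.0 RPM), the latter above 2NF 250 µM. XBP1 was at 178.7 RPM in 2NF 50 µM against 274.6 RPM in its control, under all 9 controls, while DNAJB9 was at 76.3 against 61.1 RPM and SDF2L1 at 4.20 against 7.85 RPM in the same library.

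**Figure D4:**
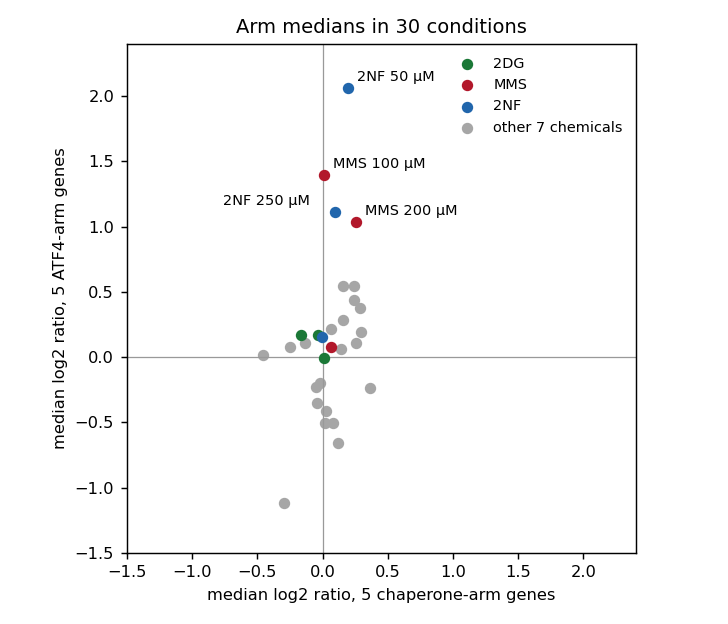
Each point is 1 treated condition, with the median log2 ratio of the 5 chaperone-arm genes on the horizontal axis and that of the 5 ATF4-arm genes on the vertical axis, on equal scales. MMS 100 and 200 µM and 2NF 50 and 250 µM lie at 1.03 to 2.06 on the vertical axis and at 0.01 to 0.25 on the horizontal axis, and the 3 points of 2DG lie near the origin.

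The libraries with high TRIB3, ASNS and CHAC1 also had a low summed level of hepatocyte markers. ALB weighs most in that sum, with a median of 22105 RPM over the 39 libraries and APOB next at 3513 RPM. The markers were not compared singly. The summed RPM of the 10 hepatocyte markers was 3642 and 6918 in MMS 100 and 200 µM against 26096 in the MMS control, and 14615 and 12689 in 2NF 50 and 250 µM against 36141 in the 2NF control. The sum was also under that of the lowest control (24174 RPM) in MMS 50 µM (19518), COL 0.3 µM (19820) and 2DG 1.25 and 10 mM (20092 and 21292). All 10 markers still had at least 10 counts in each library. The 7 cholangiocyte markers summed to 502.3 and 812.4 RPM in MMS 100 and 200 µM against 1272 RPM in the MMS control. In 2NF 50 and 250 µM they summed to 308.2 and 321.2 RPM against 706.6 RPM in the 2NF control, and the 9 controls ran from 468.1 to 1464 RPM. The sum was as low in 2NF 10 µM (303.0 RPM), where the median of the ATF4 arm was 0.15. EPCAM and CFTR had medians of 0 RPM over all 39 libraries. Both were at 0 in each of the 4 mid and high libraries of MMS and 2NF, as in 2DG. The 5 fibroblast and stellate markers summed to 198.2 to 216.4 RPM (125.4 to 227.9 RPM in the controls) and 4 blood and endothelial markers to 53.5 to 122.7 RPM (80.4 to 121.2 RPM in the controls), with PTPRC and VWF at 0. In bulk RNA, fewer cells of a type and less RNA per cell cannot be told apart, and the part of the change in markers in the ATF4-arm result was not tested.

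When all 3 concentrations of a chemical entered the edgeR fit together, 0 of the 10 genes were called in MMS, where 1.14% of the genes tested were called, and 0 in 2NF, where 0.0284% were called. At an unadjusted p under 0.05 there was 1 member in MMS, beside 2407 of the 14107 genes tested, and there were 3 in 2NF, beside 1371. ATF4 in MMS had a log2 difference of 0.95 ± 0.30 (SE, adjusted p = 0.111), and DESeq2 called it (adjusted p = 0.0491) as its only member in either chemical, beside 2.4% of all genes in MMS and 1.08% in 2NF. In 2NF, TRIB3 differed by 1.38 ± 0.45 (SE, adjusted p = 0.232), ASNS by 1.41 ± 0.49 (SE, adjusted p = 0.282) and CHAC1 by 1.87 ± 0.80 (SE, adjusted p = 0.436), all in edgeR. Without the low concentrations the fit called ATF4, TRIB3 and CHAC1 in MMS (adjusted p = 0.00315, 0.0222 and 0.0150) and TRIB3, ASNS and CHAC1 in 2NF (adjusted p = 0.00404, 0.0462 and 0.0145), where 11.5% of all genes were called in MMS and 5.46% in 2NF. Without the mid concentrations 0 of the 10 were called in either chemical (beside 0.0214% and 0.00712% of genes), and likewise without the high ones (0.0143% and 0.00713%). Over these fits the log2 difference of ATF4 in MMS ran from 0.63 to 1.26, that of TRIB3 in 2NF from 0.82 to 1.71, that of ASNS in 2NF from 0.90 to 1.68 and that of CHAC1 in 2NF from 1.00 to 2.29, each lowest without the mid library. A slope over the concentration levels called ATF4 and TRIB3 in MMS (edgeR, adjusted p = 0.00313 and 0.0457) and TRIB3 in 2NF (adjusted p = 0.0172), but it called 15.5% and 8.75% of all genes, so these 2 and 1 of 10 members are near the share of all genes. With all DMSO controls as 1 group, ASNS and TRIB3 were called in 2NF (edgeR, adjusted p = 0.0193 and 0.00190), beside 6.32% of genes.

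The difference between these chemicals and 2DG was tested in the same edgeR fit, as contrasts added after the values were seen. For MMS minus 2DG, 0 of the 10 genes were called, beside 0.00709% of the genes tested, and for 2NF minus 2DG 0 of the 10, beside 0%. The unadjusted p was under 0.05 for ATF4 in the first contrast (log2 difference 0.90, 95% interval 0.07 to 1.73) and for ASNS (1.36, 0.02 to 2.70) and TRIB3 (1.23, 0.01 to 2.44) in the second, while DESeq2 called 0 of the 10 in each. Among all 14107 genes tested, 1039 in the first contrast and 595 in the second were under 0.05. HSPA5 differed by 0.30 (-0.40 to 1.00) and by 0.26 (-0.44 to 0.97). Across the 3 concentrations, therefore, no member was called as different between MMS or 2NF and 2DG.

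**Figure D5:**
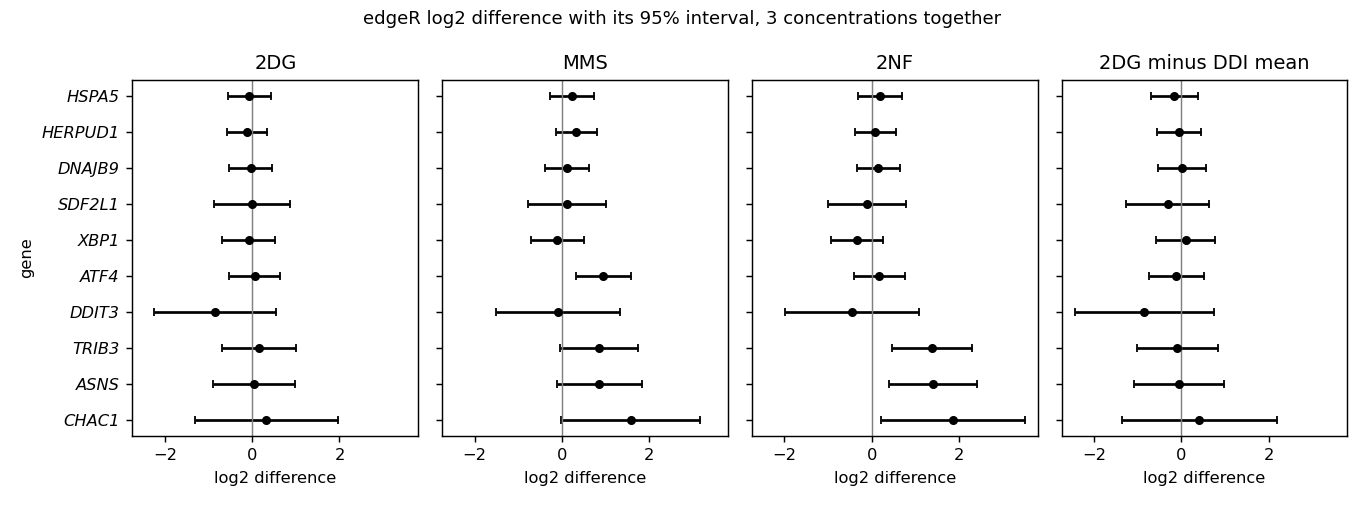
Points are the edgeR log2 differences of the 10 genes with the 3 concentrations of a chemical in 1 term, for 2DG, MMS and 2NF against their matched controls and for 2DG minus the mean of the 5 DDI chemicals, and bars are 95% intervals. Every interval in 2DG includes 0, and the intervals of ATF4 in MMS and of TRIB3, ASNS and CHAC1 in 2NF lie above it before adjustment over all genes.

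Other genes under ATF4 were read in the same 4 libraries. Of the 12 measured genes of amino acid supply, 5 passed 2-fold upward in each of MMS 100 µM, MMS 200 µM and 2NF 50 µM and 4 did so in 2NF 250 µM, where 1 was lower, beside 3.37%, 3.18%, 2.78% and 4.65% of all genes higher in these libraries. SLC7A11, the cystine carrier that feeds glutathione synthesis, was at 63.5 RPM in the MMS control and at 110.7, 305.6 and 254.4 RPM in MMS 50, 100 and 200 µM. It rose in MMS by 1.72 ± 0.41 (SE) on the log2 scale (edgeR, adjusted p = 0.0359). It is the only gene of this list that edgeR called in MMS, and without the mid or the high concentrations its adjusted p was 0.540 or 0.281. In 2NF SLC7A11 was at 88.6 RPM in the control and at 194.5, 375.3 and 391.3 RPM in 2NF 10, 50 and 250 µM. The low libraries of both chemicals were already above the highest of the 9 controls, 89.3 RPM. In 2NF 10 µM its log2 ratio was 1.13, beside 0.698% of all genes more than 2-fold higher there. Of the 12 aminoacyl-tRNA synthetases, 2 passed 2-fold upward in MMS 100 µM and none in the other 3 libraries, and edgeR called 0 in MMS, although all 12 estimates were above 0. In MMS, 5 of the amino acid genes and 5 of the synthetases had an unadjusted p under 0.05 in edgeR, beside 2407 of the 14107 genes tested. In 2NF edgeR called 0 genes of both lists, beside 0.0284% of genes tested. With an unadjusted p under 0.05 were 6 of the amino acid genes and 0 of the synthetases, beside 1371 of the 14107 genes tested. DESeq2 called SLC7A11 and SLC3A2, its partner chain, beside 1.08% of all genes.

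Among the secreted and mTOR-linked stress genes, VEGFA, the vascular growth factor, fell in MMS by 0.90 on the log2 scale (SE 0.19, edgeR, adjusted p = 0.0298), from 100.2 RPM in the control to 48.6 RPM at 100 µM, with adjusted p values of 0.540 and 0.0888 without the mid or the high concentrations. The largest ratios of the 8 lists, chosen after their values were seen, were in 2NF. STC2, a secreted glycoprotein, was at 1.99 RPM in the 2NF control and at 11.5, 44.4 and 25.5 RPM at 10, 50 and 250 µM. GDF15, a stress cytokine, was at 68.3 RPM and then at 166.9, 437.4 and 657.0 RPM. At 10 µM the log2 ratios were already 2.06 for STC2 and 1.28 for GDF15, although GDF15 was there below its highest control (254.5 RPM). Both were called by DESeq2 and neither by edgeR, and the 2NF control was the lowest of the 9 for each. ATF3 was at 10.2 RPM in the 2NF control and at 22.1, 53.5 and 60.3 RPM with rising 2NF, where the control was the lowest of the 9. In MMS it was at 76.2 RPM in the control, the highest of the 9, and at 27.4, 88.3 and 78.7 RPM. PPP1R15A was at 30.5 RPM in the 2NF control and at 44.7, 82.8 and 77.9 RPM, and at 64.2 RPM in the MMS control and at 29.7, 79.4 and 45.5 RPM. In both chemicals edgeR called neither gene (adjusted p = 0.225 and 0.313 in 2NF, 0.814 and 0.616 in MMS).

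The ER lists were flatter in these libraries. Of 14 ER chaperones and folding enzymes, 1 passed 2-fold upward in MMS 100 µM and 1 downward in 2NF 50 µM, and the list medians in the 4 libraries were 0.29, 0.09, 0.02 and 0.19. The ER-associated degradation list had 1 of 10 measured genes past 2-fold upward in each MMS library and none in 2NF, and the sensors and eIF2 alpha kinases had none in any of the 4. For the secretory pathway under XBP1 the count was 1 of 13 in each MMS library and 0 of 12 in each 2NF library. Of all genes with at least 10 counts, 3.37%, 3.18%, 2.78% and 4.65% were more than 2-fold higher in the 4 libraries. In 2NF 50 µM 4.19% were more than 2-fold lower. In edgeR, 0 genes of these 4 lists were called in MMS or in 2NF, beside 1.14% and 0.0284% of all genes tested. Of the 47 list genes tested, 6 in MMS and 0 in 2NF had an unadjusted p under 0.05, beside 2407 and 1371 of all 14107 genes. DESeq2 called 1 in MMS, VIMP (selenoprotein S, of ER-associated degradation), and 0 in 2NF, beside 2.4% and 1.08% of all genes.

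In AFB1, CISP and ETP the medians of the ATF4 arm lay between -1.12 and 0.08. In AFB1 the gene with the largest ratio at the high concentration was XBP1, at 253.4 RPM in the control and at 240.8, 193.2 and 124.5 RPM at 0.25, 1 and 2.5 µM, so that the highest concentration was below all 9 controls. Its log2 ratios were -0.07, -0.39 and -1.02, and controls in DMSO differed from each other by up to 0.52. In AFB1 2.5 µM, HSPA5 (647.7 RPM), HERPUD1 (74.6 RPM), XBP1 and TRIB3 were under all 9 controls. TRIB3, of the ATF4 arm, was so at each AFB1 concentration, with log2 ratios of -0.20, -0.06 and -0.10. Of the 10 genes, 1 was more than 2-fold lower in AFB1 1 µM (DDIT3, 6 counts against 26) and 1 in AFB1 2.5 µM, beside 0.6% and 3.07% of all genes. Over the 3 concentrations edgeR called 0 of the 10, beside 0% of genes tested, and DESeq2 called 0 of the 10. No member had an unadjusted p under 0.05 in edgeR, compared with 586 of the 14107 genes tested. A slope over the levels called XBP1 (log2 change per level -0.35, edgeR, adjusted p = 0.0298), beside 5.57% of genes, and with all DMSO controls as 1 group CHAC1 was called (-2.11, edgeR, adjusted p = 0.0434), beside 3.14% of genes. A count of 1 in 10 members is not apart from these shares.

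The controls of CISP and ETP were high for CHAC1. It was at 9.73 RPM in the CISP control and 9.31 RPM in the ETP control, against 1.43 to 3.25 RPM in the other 7 controls, and at 2.43, 2.65 and 1.85 RPM in CISP and 2.98, 2.14 and 3.17 RPM in ETP. All 6 treated libraries were thus within the range of the other 7 controls and more than 2-fold below their own. ASNS was at 29.6 RPM in the CISP control and at 10.8, 10.7 and 18.2 RPM in CISP, where 2 and 5 µM were under all 9 controls. In CISP 2, 5 and 10 µM, 3, 2 and 1 of the 10 genes were more than 2-fold lower, beside 6.56%, 4.29% and 0.399% of all genes, and in each of the 3 ETP libraries 1 was, beside 0.0766%, 0.107% and 0.0772%. SDF2L1 was more than 2-fold higher in CISP 5 µM (12.7 against 4.54 RPM, beside 0.93% of genes), and DDIT3 in ETP 0.5 µM (15 counts against 2, beside 1.13% of genes). In each of these chemicals edgeR called 0 of the 10 and 0% of the 14107 genes tested, and DESeq2 called 0 members. An unadjusted p under 0.05 was found for 3 members in CISP (CHAC1, ASNS and SDF2L1), beside 983 of all genes tested, and for 2 in ETP (CHAC1 and DDIT3), beside 530.

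Among the non-DDI chemicals other than 2DG, 3 pairs passed 2-fold. ASNS was at 39.3 RPM in AMP 10 mM against 13.3 RPM in its control and 17.8 and 14.6 RPM at 1 and 3 mM (beside 2.09% of genes higher). DDIT3 was higher in ASC 1 mM (28 counts against 8, beside 2.35% of genes), and SDF2L1 was lower in NaCl 10 mM (5.62 against 13.2 RPM, beside 0.803% of genes), where the NaCl control was the highest of the 9. COL had none, and its HSPA5 was at 1009, 1143 and 1130 RPM against 844.4 RPM in the control it shared with AFB1, above all 9 controls at each concentration. HSPA5 was above all 9 controls in each CISP library as well (1360, 1089 and 1019 RPM at 2, 5 and 10 µM). Of the 30 treated libraries, 13 were above and 7 were below all controls for this gene. Called by edgeR were 0 of the 10 genes in COL, ASC, AMP and NaCl, beside 0.0496%, 0%, 0% and 0% of genes tested, and DESeq2 called 0 members. No member had an unadjusted p under 0.05 in edgeR, compared with 1383, 1675, 402 and 227 of the 14107 genes tested. From the pathway lists, DDIT4 (REDD1, an inhibitor of mTOR) fell in COL by 1.26 on the log2 scale (SE 0.24, edgeR, adjusted p = 0.0381), and without the mid or the high concentrations its adjusted p was 0.413 or 0.218.

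With the 5 DDI chemicals as replicates of their class, edgeR called 0 of the 10 genes at the low, mid and high concentration, while 0%, 0.0957% and 1.25% of the genes tested were called. At an unadjusted p under 0.05 there were 2 members at the low concentration, CHAC1 (log2 difference -1.09) and SDF2L1 (0.50), beside 478 of 13586 genes tested. There were 0 members at the mid and the high concentration, beside 1269 of 13587 and 2214 of 13505 genes, and DESeq2 called 0 members at each. TRIB3 at the high concentration differed by 0.16 with a 95% interval from -0.41 to 0.72, and HSPA5 by -0.06 (-0.37 to 0.25). Single log2 ratios of TRIB3 at the high concentration were 1.03 in MMS and 1.19 in 2NF, and -0.10 in AFB1, -0.51 in CISP and -0.35 in ETP.

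2DG minus the mean of the 5 DDI chemicals gave 0 of 10 genes called by edgeR, beside 0% of genes tested, and 0 by DESeq2. No member had an unadjusted p under 0.05 in edgeR, compared with 398 of the 14107 genes tested. The difference was -0.16 for HSPA5 (95% interval -0.70 to 0.38), -0.06 for HERPUD1 (-0.57 to 0.45), -0.11 for ATF4 (-0.75 to 0.53) and -0.09 for TRIB3 (-1.02 to 0.84).

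Over the 39 libraries the genes whose log2(RPM + 1) was most like that of a member were named for HSPA5 and ASNS, among the 11562 genes that no library had under 10 counts. For HSPA5 these were DNAJB11, an ER co-chaperone (Pearson's r = 0.780), PRRC1 (0.694), STX5 (0.690), HPS1 (0.687) and YKT6 (0.682). For ASNS they were PSAT1 and PHGDH, 2 enzymes of serine synthesis (0.815 and 0.789), SLC7A11 (0.736), NR1D2 (0.717) and YARS, the tyrosyl-tRNA synthetase (0.697). Among the 8 members above that count, ATF4 with TRIB3 (r = 0.759) and TRIB3 with ASNS (r = 0.728) were the most alike, while HSPA5 had 0.115 with ASNS and 0.35 with HERPUD1. Without the 4 libraries of MMS 100 and 200 µM and 2NF 50 and 250 µM, ATF4 with TRIB3 was at 0.571 and HERPUD1 with XBP1, at 0.630, was the most alike. The libraries share vehicles and controls, so these correlations are descriptions of the 39 libraries.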

How the data were processed

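RNA of HepaRG™ cells was measured by AmpliSeq in 39 libraries, each of RNA pooled from 3 cultures. Reads were mapped by the authors with TMAP in the Torrent Suite to the AmpliSeq transcripts (hg19, per the labels). The authors deposited raw counts per target and, per the file headers, RPM, the same counts scaled by the total reads of a library. The 10 spike targets were at 0 everywhere and were left out. Groups came from the labels.

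Ratios used log2(RPM + 1), and shares of all genes used those with at least 10 counts in 1 of the 2 libraries. Intervals for single ratios were exact (Clopper-Pearson, 95%) and cover counting error only, since reads carry no molecular identifiers. Counts were tested with edgeR 4.0.16 (quasi-likelihood, TMM, filterByExpr, Benjamini-Hochberg at 0.05, R 4.3.3). In the fit by chemical, each control with its treated libraries was a block and the 3 concentrations of a chemical stood in as replicates, so its p-values rest on the spread between concentrations. Each block had 1 control, which was assumed to vary like the treated libraries, and the spread between controls did not enter. The fit by class at each concentration took 9 chemicals, without 2DG, and 8 controls. DESeq2 1.42.0 was an alternative. Scripts were tested on simulated data.

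Genes outside the 10 were named from the pathway lists when called by edgeR, by likeness (5 each for HSPA5 and ASNS) or, where stated, after their values were seen. The 10 genes, the lists and the tests were chosen with earlier results of these data known.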

Additional observations from a re-analysis of the deposited data

Results flagged for a closer look

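In 4 of the 90 groups of 4, 5 or 9 samples examined for the 10 genes, 1 sample stood apart from the rest of its group by Dixon's criterion, which chance gives in about 5% of groups. SDF2L1 was at 13.2 RPM in the vehicle control of NaCl, the highest of the 9 controls, and at 4.31 to 8.34 RPM in the others. XBP1 had a log2 ratio of -1.02 in AFB1 2.5 µM, the lowest of the 5 DDI chemicals at the high concentration. ATF4 had a log2 ratio of 1.11 in MMS 200 µM, the highest of the same 5 chemicals. CHAC1 had a log2 ratio of -0.80 in NaCl 2.5 mM, the lowest of the 5 non-DDI chemicals at the mid concentration, and rested there on 10 counts against 21.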

How the results depend on the processing

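In 2DG, 0 of the 10 genes were called under every alternative tried. In MMS, 1 was called by DESeq2 (2.4% of all genes), 2 by the slope over concentration levels (15.5%) and 0 to 3 when 1 concentration level was left out (3 only without the low level, 11.5%). In 2NF, 2 were called with all controls of the same vehicle (6.32%), 1 by the slope (8.75%) and 0 to 3 when a level was left out (3 only without the low level, 5.46%). In AFB1, 1 was called with all controls of the same vehicle (3.14%) and 1 by the slope (5.57%). Lower pairs went from 12 to 5 with the mean of the controls of the same vehicle and to 3 with that of all 9 controls, and chaperone-arm pairs past 2-fold from 3 to 1 and 0. The cause was not tested.

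Of 980 estimates of the 10 genes under the alternatives, 58 changed sign, 0 of them with an adjusted p under 0.05 in edgeR. The largest of these moves were with all DMSO controls as 1 group, from 2.82 to -0.0976 for DDIT3 in ETP and from 0.79 to -1.22 for CHAC1 in COL. In 2DG, leaving out a level gave -0.27 to 0.03 for HSPA5, -0.20 to 0.11 for DNAJB9, -0.28 to 0.13 for SDF2L1, -0.14 to 0.0165 for XBP1, -0.0177 to 0.11 for ATF4 and -0.0282 to 0.17 for ASNS, and the slope gave 0.063 for DNAJB9, 0.0432 for XBP1 and -0.0036 for ATF4. DDIT3 in MMS became 0.0021 with library totals and 0.0243 with the slope, with -0.45 to 0.14 when a level was left out, and ATF4 in 2NF ran from -0.0099 to 0.26.

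Genes called in MMS numbered 161, and 339 by DESeq2, 92 with library totals, 2140 by the slope and 2 to 1610 with a level left out. Over all alternatives the counts ran from 1 to 1208 in 2NF (4 reported), 0 to 769 in AFB1 (0), 0 to 1704 in COL (7), 0 to 167 in DDI chemicals at the mid concentration (13) and 0 to 680 at the high (169). No paired analysis was possible because the labels give no replicate numbers, other than the matching of each chemical to its control, which was a block in the reported fits. Without that matching the class fits also called 0 of the 10 genes. Low counts limit DDIT3 and CHAC1, the only members under 10 counts in some library.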
